A study of Mus musculus with 10 samples.

Results

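Integrin and laminin genes were examined in mouse intestinal organoids and colonic crypts that had been profiled by droplet-based single-cell RNA sequencing. The genes were chosen by symbol, as every Itga gene (integrin α chains), Itgb gene (integrin β chains), and Lama, Lamb or Lamc gene (laminin α, β and γ chains) with at least 10 UMIs over all kept cells. A UMI (unique molecular identifier) marks 1 captured transcript molecule. Of 31053 genes, 36 met this rule, namely 18 integrin α, 8 integrin β and 10 laminin genes. Just inside the threshold lay Lama2 with 11 UMIs, Itga8 and Lama1 with 15 each, and Itga11 with 16, while Lamc3 with 6 UMIs lay outside it.

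Integrins are cell surface receptors made of 1 α and 1 β chain, which tie the cytoskeleton to the matrix outside the cell and signal in both directions. Laminins are secreted trimers of 1 α, 1 β and 1 γ chain and form the network of the basement membrane on which the intestinal epithelium sits. The integrins made of Itga6 with Itgb1 or Itgb4, and of Itga3 with Itgb1, are the best known laminin receptors of epithelial cells, and Itgb4 anchors keratin filaments in hemidesmosomes.

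The study compared organoids grown in media that differ in their signaling and epigenetic components, and colonic crypts with or without injury. All organoids came from crypts of the proximal small intestine and grew in Matrigel, a basement membrane extract that itself holds laminin protein, in a base medium with N2, B27 and N-acetylcysteine. ENR-organoids (3 libraries, passages 2, 7 and 3) were given Noggin, R-Spondin 1 and EGF. The Hyper-organoids (3 libraries, passages 1, 6 and 3) received LDN193189, GSK-3 Inhibitor XV, Pexmetinib, VPA (a histone deacetylase inhibitor), EPZ6438 (an EZH2 inhibitor), EGF, R-Spondin 1 conditioned medium and FGF2. The -VE-organoids (2 libraries, passages 1 and 6) received the Hyper medium lacking VPA and EPZ6438. Normal colonic crypts and crypts from mice given dextran sulfate sodium (DSS), an agent that injures the colonic epithelium, gave 1 library each. Replicates 1, 2 and 3 stand for the libraries whose codes begin with 2, 6 and C. These sets are taken here as culture series, a name that the labels do not give. In series 2 and 6 the Hyper- and -VE-organoids were started from ENR-organoids, and series C began from primary crypts. Nothing says that the libraries of a group came from separate mice, so every p measures the spread between these libraries, which may be technical.

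The 8 organoid libraries held 89124015 to 170019527 UMIs in 1983 to 4293 kept cells, and the normal and DSS libraries 19906845 and 32397122 UMIs in 1132 and 1933 cells. Libraries shared at most 5 cell barcodes per pair. Leukocyte markers summed to 0.65 to 1.05 CPM (the counts-per-million scale) in organoids, against 318 and 1622 CPM in normal and DSS crypts. The 7 fibroblast markers summed to 5.95 to 15.7 CPM in ENR-, 5.30 to 9.86 CPM in -VE- and 19.7 to 90.6 CPM in Hyper-organoids, nearly all of it Vim (5.86 to 15.7 CPM in ENR- and 19.1 to 89.8 CPM in Hyper-organoids). Col1a1 was at 0.0224 to 0.0617 CPM in ENR- and 0.343 to 0.485 CPM in Hyper-organoids, and the muscle gene Des at 0 to 0.00814 and 0.180 to 0.355 CPM, levels like those of the lower integrin and laminin genes. Of the other muscle and pericyte markers, Acta2 stayed at or below 0.0443 CPM and Myh11 at or below 0.0411 CPM in organoids. Rgs5 was at 0.0224 to 0.0309 CPM in ENR- and 1.20, 0 and 0.166 CPM in Hyper-organoids. Col3a1 stayed at or below 0.0211 CPM in organoids. The shares of cell classes differed between media. Stem cells made up 9.75% to 14.7% of kept cells in ENR-, 24.3% to 28.2% in -VE- and 40.0% to 44.1% in Hyper-organoids, and enterocyte progenitors 22.2% to 34.5%, 4.29% to 4.39% and 0.09% to 0.11%. The part of these markers and shares in the differences between summed libraries was not tested. In summed libraries, fewer cells of a type and less RNA per cell cannot be told apart.

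The comparison of Hyper- with ENR-organoids asks how the full Hyper medium changes these genes. Of the 36 genes, 29 passed the filter on low counts and were tested. A gene was called when its edgeR quasi-likelihood test gave a Benjamini-Hochberg adjusted p under 0.05 over all 16037 genes and the fold was at least 2. In Hyper-organoids 11 of the 29 rose and 1 fell, whereas 22.9% of all genes tested were called and 18.2% were called higher. The genes that rose were Itga5, Itga7, Itga9, Itgb5, Itgb7, Itgb8, Lama3, Lama5, Lamb1, Lamb2 and Lamc1, and the gene that fell was Itgam. Lama3, Lama4 and Itgb8 passed the filter on low counts only through the Hyper libraries, so they could only be called higher. Another 4 genes, among them Itgav, Itgb1 and Lamb3, had an adjusted p under 0.05 with a change under the 2-fold threshold, and 13 missed the threshold. The median log2 fold change of the 29 genes was 0.85, against -0.01 over all genes. Laminins gave 5 of 8 called and a median of 1.89, integrins 7 of 21 and a median of 0.21. The 2 groups of libraries did not overlap for 20 of the 29 genes, which was also so for 64.4% of all genes.

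**Figure D1:**
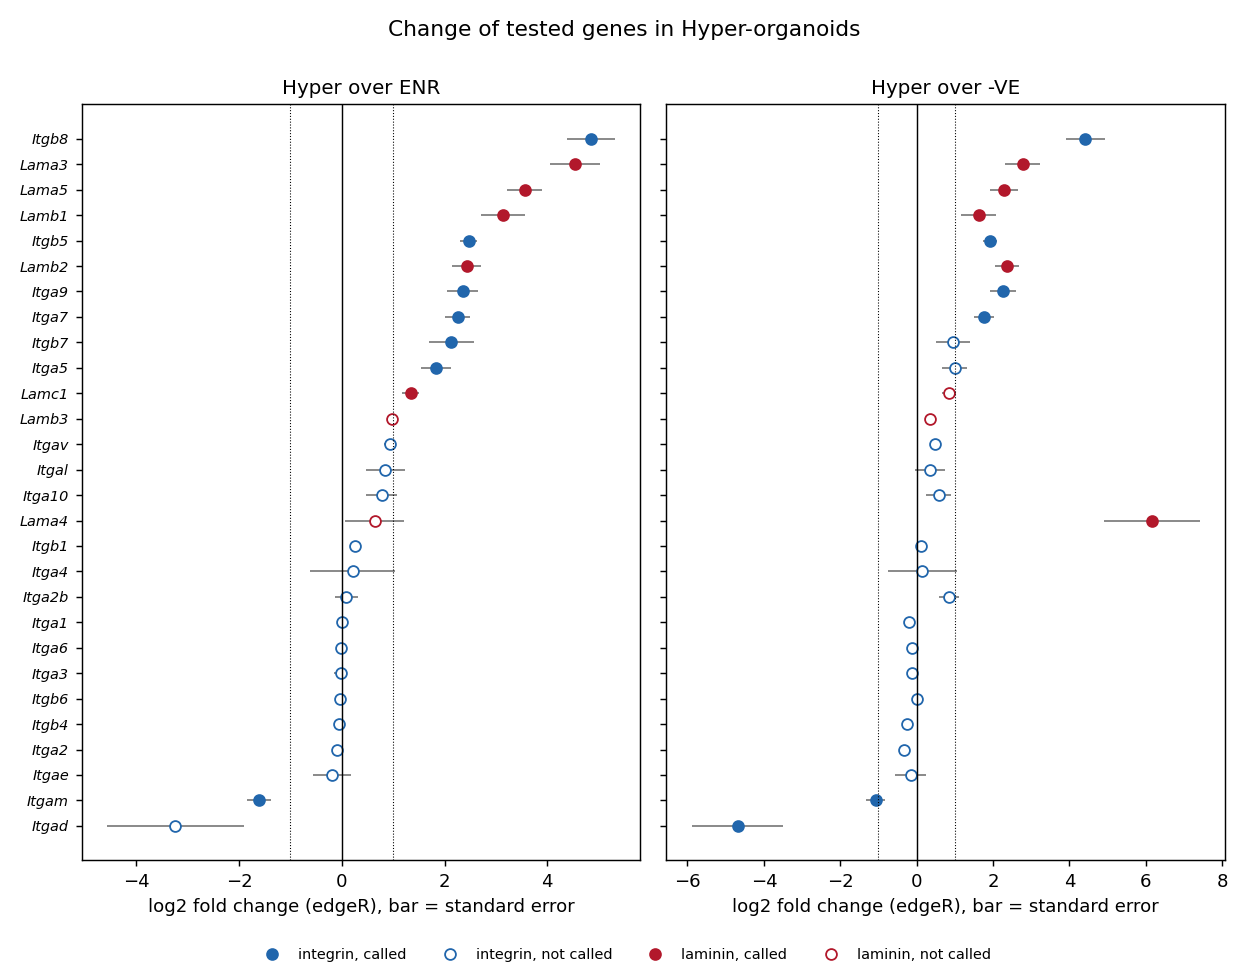
Log2 fold change of 28 of the 29 tested integrin and laminin genes in Hyper-organoids over ENR-organoids and over -VE-organoids, with bars of 1 standard error and filled points for genes called. Laminin chains and the integrins Itgb5 and Itgb8 lie to the right in both comparisons with Hyper-organoids, while Itga6 and Itgb4 lie close to 0. The fitted value of Lama4 against -VE-organoids rests on a group with 0 UMIs and is not a bound.

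Among the laminin α chains, Lama5 and Lama3 rose. Lama5, the α chain of laminin-511 in adult epithelial basement membranes, was at 0.818, 0.827 and 0.358 CPM in the ENR libraries, 1.21 and 2.06 CPM in the -VE libraries and 7.63, 9.47 and 6.83 CPM in the Hyper libraries (replicates in order). Every Hyper library lay above every other library, with group means of 0.668 ± 0.268 (SD, n = 3), 1.64 ± 0.596 (n = 2) and 7.98 ± 1.35 CPM (n = 3). The fold of Hyper- over ENR-organoids was 11.8 (log2 3.56, SE 0.34, edgeR adjusted p = 6.28e-05). Lama3, the α chain of laminin-332 of hemidesmosomal adhesion, was at 0.0207, 0.0167 and 0.0358 CPM in ENR-, 0.0513 and 0.110 in -VE- and 0.482, 0.438 and 0.812 in Hyper-organoids. It was close to the limit of detection in ENR-organoids (7 UMIs in all, against 214 in Hyper-organoids), and the ratio of summed CPM was 25.5 (95% counting interval 12.2 to 64.2; log2 4.55, SE 0.49, adjusted p = 0.000119 in the edgeR test). Such intervals cover counting error only. Of the 214 UMIs of Lama3 in Hyper-organoids, 36.0% lay in cells annotated as revival stem cells, 28.0% in transit amplifying cells, 23.4% in stem cells and 11.2% in enterocytes. Revival stem cells held 0.658% of all UMIs there and were absent from ENR-organoids. Lama4, a chain better known from blood vessels, held 14 UMIs in ENR-organoids, none in -VE-organoids and 28 in Hyper-organoids (0.0621, 0.0501 and 0.0239 CPM, then 0 and 0, then 0.0339, 0.0929 and 0.0949) and missed the threshold against ENR-organoids (log2 0.64, adjusted p = 0.376).

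Among the β chains, Lamb1 and Lamb2 rose. Lamb1, the β chain of laminin-111 and laminin-511, was at 0.321, 0.209 and 0.287 CPM in ENR-, 0.727 and 0.816 in -VE- and 1.07, 3.38 and 2.69 in Hyper-organoids. The groups did not overlap, but Hyper replicate 1 lay much closer to the -VE libraries than the other two Hyper libraries did. The fold over ENR-organoids was 8.76 (log2 3.13, SE 0.43, edgeR adjusted p = 0.000436). Lamb2, which replaces Lamb1 in laminin-521, was at 0.818, 0.660 and 0.370 CPM in ENR-, 0.650 and 0.645 in -VE- and 2.78, 3.90 and 3.36 in Hyper-organoids, a fold of 5.40 (log2 2.43, SE 0.28, edgeR adjusted p = 0.000168). Its ENR and -VE libraries overlapped and the Hyper libraries stood above both. Lamb3, the β chain of laminin-332, was read at 16.9, 15.6 and 15.7 CPM in ENR-, 23.7 and 25.7 in -VE- and 32.6, 32.2 and 30.2 in Hyper-organoids. The 3 groups were in separate ranges in that order, and the change from ENR- to Hyper-organoids was just under 2-fold (1.97, log2 0.98, SE 0.06, edgeR adjusted p = 7.55e-06).

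Lamc1, the γ chain shared by most laminins, rose. Its values were 8.17, 7.15 and 5.56 CPM in ENR-, 10.9 and 8.71 in -VE- and 18.7, 19.3 and 15.0 in Hyper-organoids, a fold of 2.54 (log2 1.34, SE 0.16, edgeR adjusted p = 0.000225). All Hyper libraries exceeded all others.

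**Figure D2:**
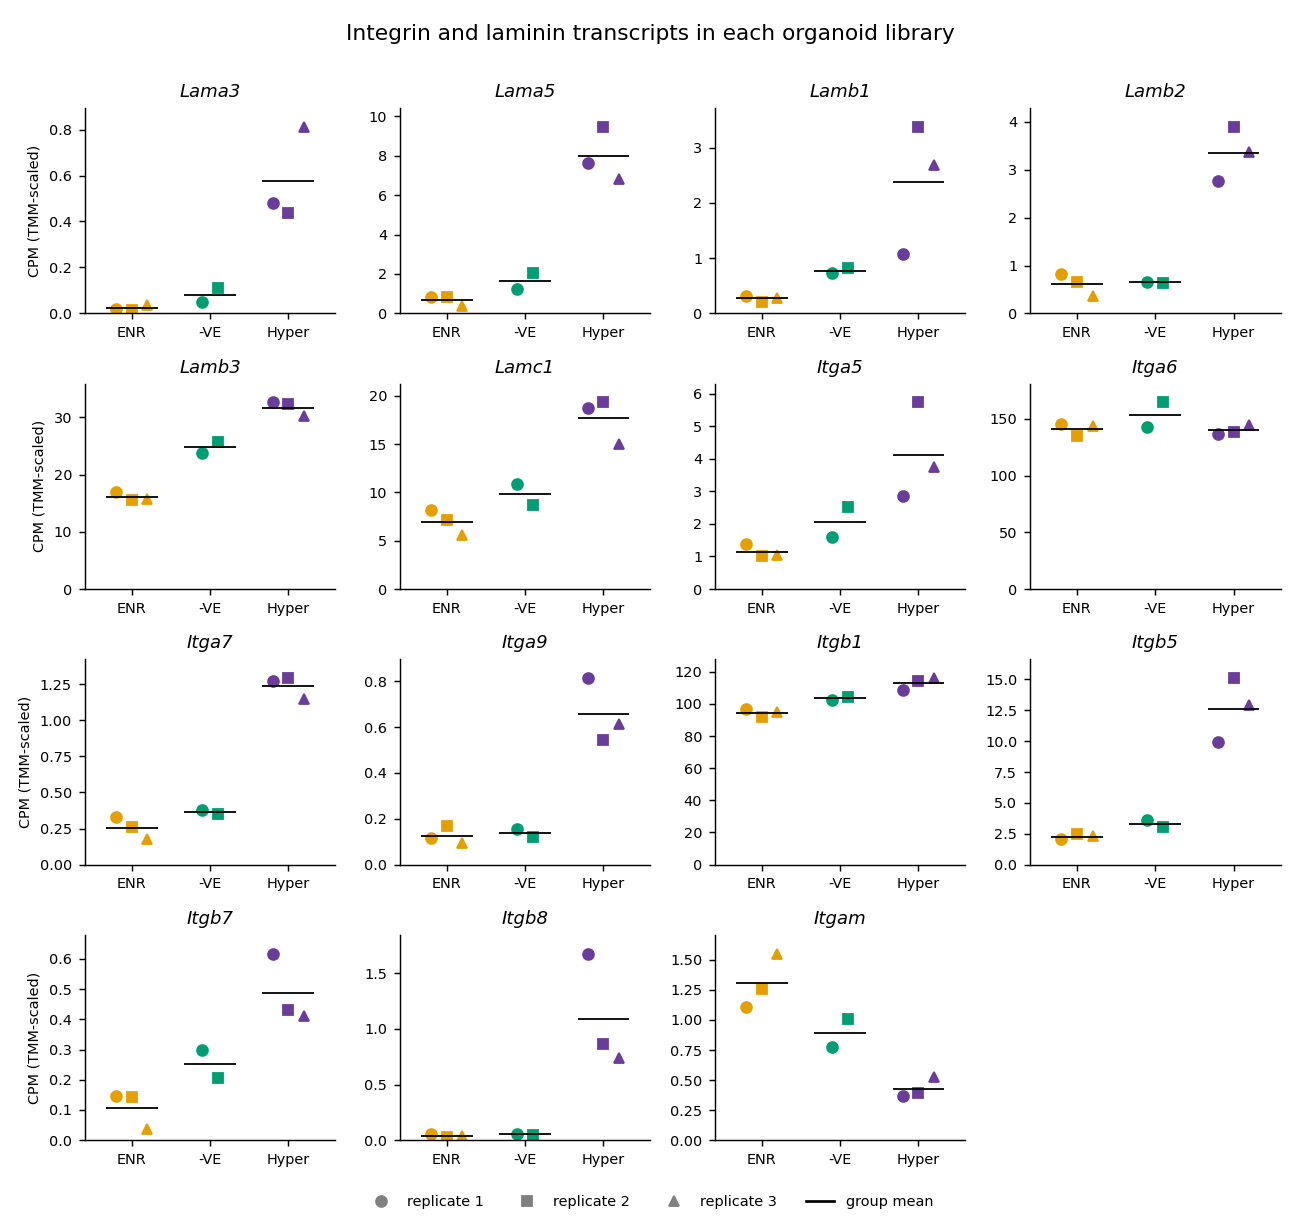
Level of 15 integrin and laminin genes in every organoid library, in TMM-adjusted CPM on linear axes from 0, with 1 point per library and a bar at the group mean. The Hyper points of Lama5, Lamb2, Itgb5, Itgb8, Itga7 and Itga9 lie well above those of ENR- and -VE-organoids, whereas the points of Itga6 lie at nearly the same height in the 3 groups.

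Among the tested β chains of integrins, Itgb5 and Itgb8, partners of the αv chain, rose most. Itgb5 was at 2.08, 2.45 and 2.29 CPM in ENR-, 3.58 and 3.07 in -VE- and 9.89, 15.1 and 12.9 in Hyper-organoids (fold 5.55, log2 2.47, SE 0.17, edgeR adjusted p = 1.26e-05). Its lowest Hyper library was well above the highest -VE library. Itgb8, the chain of the αvβ8 integrin that activates latent TGF-β, was at 0.0518, 0.0251 and 0.0358 CPM in ENR-, 0.0599 and 0.0426 in -VE- and 1.68, 0.862 and 0.738 in Hyper-organoids. With 11 UMIs in ENR- and 447 in Hyper-organoids, the ratio of summed CPM was 33.9 (95% counting interval 18.8 to 68.4; log2 4.85, SE 0.47, edgeR adjusted p = 6.63e-05). ENR- and -VE-organoids overlapped at this low level, and Hyper replicate 1 was the highest library. Itgav itself, the αv chain that binds RGD motifs in vitronectin and fibronectin, was at 5.40, 5.27 and 5.51 CPM in ENR-, 6.69 and 8.07 in -VE- and 8.84, 11.2 and 10.8 in Hyper-organoids. The groups were separate, and the 1.90-fold difference was under the 2-fold threshold (log2 0.93, SE 0.11, edgeR adjusted p = 0.000245). Itgb6, the epithelial αv partner, differed little (group means 8.19 ± 0.497, n = 3, and 8.00 ± 0.95 CPM, n = 3).

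Of the 8 genes called higher that matched a RefSeq promoter, sequences are shown for the 4 with the largest changes, 2 integrin and 2 laminin chains (GRCm38.p6, 250 bases before to 50 after the start, read 5′ to 3′ on the gene's strand). Capitals mark the GC box GGGCGG on either strand, the core of the site bound by Sp/KLF factors.
Itgb5, chr16:33829415-33829714 (+): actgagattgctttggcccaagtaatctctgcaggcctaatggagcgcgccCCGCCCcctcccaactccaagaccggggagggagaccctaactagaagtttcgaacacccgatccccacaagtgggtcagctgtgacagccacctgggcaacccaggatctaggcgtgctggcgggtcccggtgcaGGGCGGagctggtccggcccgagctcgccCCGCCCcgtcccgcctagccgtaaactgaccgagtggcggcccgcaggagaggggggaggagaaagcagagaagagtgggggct
Itgb8, chr12:119238227-119238526 (-): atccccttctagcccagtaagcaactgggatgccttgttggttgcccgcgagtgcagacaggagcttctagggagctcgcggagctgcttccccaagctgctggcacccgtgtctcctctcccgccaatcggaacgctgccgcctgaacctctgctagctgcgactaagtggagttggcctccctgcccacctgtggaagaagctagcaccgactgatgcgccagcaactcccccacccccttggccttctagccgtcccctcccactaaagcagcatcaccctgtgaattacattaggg
Lama5, chr2:180225810-180226109 (-): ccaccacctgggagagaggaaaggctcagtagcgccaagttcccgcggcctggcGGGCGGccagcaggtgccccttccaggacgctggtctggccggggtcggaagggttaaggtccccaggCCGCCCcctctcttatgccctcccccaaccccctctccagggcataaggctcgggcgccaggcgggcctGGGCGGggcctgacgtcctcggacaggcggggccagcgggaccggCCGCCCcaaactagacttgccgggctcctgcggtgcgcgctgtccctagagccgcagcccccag
Lamb1, chr12:31265043-31265342 (+): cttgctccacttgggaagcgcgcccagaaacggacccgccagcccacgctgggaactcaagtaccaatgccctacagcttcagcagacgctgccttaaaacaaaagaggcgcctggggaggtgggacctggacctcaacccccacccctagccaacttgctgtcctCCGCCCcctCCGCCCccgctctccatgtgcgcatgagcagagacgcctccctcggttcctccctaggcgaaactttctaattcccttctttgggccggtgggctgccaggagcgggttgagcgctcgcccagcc

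The Itgb5, Lama5 and Lamb1 windows held 3, 4 and 2 GC boxes, and the Itgb8 window held 0. Over the 26 promoters that the table holds for 23 of the integrin and laminin genes, 12 had a GC box (46.2%), against 35.7% of all 32851 promoters. The same windows held a median of 11 CpG and 58.8% G+C, against 7 CpG and 52.7% G+C over all promoters. The AP-1 motif TGANTCA was found in 3 of the 26 (11.5%, against 7.81% of all promoters) and the TEAD motif GGAATG in 3 (11.5%, against 14.7%), both strands searched, and neither was in the 4 windows printed here. The E2-box CACCTG was found in 8 (30.8%, against 20.2%) and the RUNX motif TGTGGT in 3 (11.5%, against 16.8%). These are matches of letters in short windows and do not show binding.

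Of the α chains, 3 rose that bind laminin, fibronectin or other ligands with Itgb1. Itga5, the α chain of the fibronectin receptor, was at 1.39, 1.03 and 1.04 CPM in ENR-, 1.59 and 2.51 in -VE- and 2.87, 5.73 and 3.73 in Hyper-organoids (fold 3.57, log2 1.84, SE 0.30, edgeR adjusted p = 0.00104). The 3 groups were in separate ranges, with -VE replicate 2 only slightly below Hyper replicate 1. Itga7, a laminin-binding chain best known from muscle, was at 0.331, 0.259 and 0.179 CPM in ENR-, 0.376 and 0.353 in -VE- and 1.27, 1.29 and 1.15 in Hyper-organoids (fold 4.79, log2 2.26, SE 0.24, edgeR adjusted p = 0.000118). Itga9, a receptor chain for tenascin and osteopontin, was at 0.114, 0.167 and 0.0955 CPM in ENR-, 0.154 and 0.122 in -VE- and 0.814, 0.544 and 0.612 in Hyper-organoids (fold 5.13, log2 2.36, SE 0.30, edgeR adjusted p = 0.000296). With each cell thinned to 10000 UMIs and shallower cells left out, the call of Itga9 was lost (log2 1.04, edgeR adjusted p = 0.0716). For Itga7 and Itga9 the Hyper libraries were all above the rest, and ENR- and -VE-organoids were close together or overlapped.

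The integrins with a mean of at least 20 CPM in a group showed little change. Itga6 was at 146, 135 and 143 CPM in ENR-, 143 and 164.7 in -VE- and 137, 139 and 145 in Hyper-organoids (log2 -0.01, edgeR adjusted p = 0.884). Itgb4, its hemidesmosomal partner, was at 23.1, 22.1 and 23.5 CPM, 24.2 and 27.8 CPM, and 22.7, 20.0 and 23.2 CPM in the same order (log2 -0.06, edgeR adjusted p = 0.517). The ranges of ENR- and Hyper-organoids overlapped for both. Itga2, the α chain of a collagen receptor, was at 32.0, 31.3 and 30.0 CPM in ENR-, 36.8 and 36.5 in -VE- and 28.3, 29.7 and 29.7 in Hyper-organoids (log2 -0.09, edgeR adjusted p = 0.134 against ENR-organoids), so that the highest libraries were the -VE ones. Itgb1, the shared partner of most α chains, was at 96.6, 91.8 and 95.01 CPM in ENR-, 102 and 105 in -VE- and 109, 114 and 116 in Hyper-organoids. Its groups were separate in that order, but the difference was small (1.20-fold, log2 0.26, SE 0.05, edgeR adjusted p = 0.00194). Itga1 and Itga3, chains of a collagen and a laminin receptor, had Hyper-organoid log2 changes of 0.01 and -0.02.

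Of the genes listed as leukocyte integrins, Itgam fell, and Itgb7 rose, as did Itga9, given above. Itgam, the α chain of the Mac-1 integrin of myeloid cells, was at 1.11, 1.26 and 1.55 CPM in ENR-, 0.779 and 1.00 in -VE- and 0.366, 0.391 and 0.527 in Hyper-organoids, and was 3.06-fold lower in Hyper- than in ENR-organoids (log2 -1.61, SE 0.23, edgeR adjusted p = 0.000554). The Hyper libraries were all below the others. Its partner chain Itgb2, which leukocytes express with it, held 1 UMI in -VE replicate 1, 1 in Hyper replicate 1 and 0 in the other six organoid libraries. Itgb7, the β chain of the gut-homing integrin of lymphocytes, was at 0.145, 0.142 and 0.0358 CPM in ENR-, 0.299 and 0.207 in -VE- and 0.618, 0.431 and 0.411 in Hyper-organoids (fold 4.39, log2 2.14, SE 0.44, edgeR adjusted p = 0.00361), and the groups were separate. Itgad was at 0.0828, 0.0501 and 0.0358 CPM in ENR-, 0.0257 and 0.274 in -VE- and 0.0136, 0 and 0 in Hyper-organoids, and missed the threshold against ENR-organoids (adjusted p = 0.0671, edgeR). Of the 48 UMIs of Itgad in -VE-organoids, 45 came from replicate 2, in 44 cells. Itga10, Itga2b, Itga4, Itgae and Itgal had means under 0.5 CPM in every organoid group, and their Hyper-organoid changes missed the threshold (log2 -0.20 to 0.85).

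The 7 genes below the filter on low counts were Itga8, Itga11, Itgax, Itgb2, Itgb3, Lama1 and Lama2. Itgb3, the β chain of the platelet and vitronectin receptors, held 8, 8 and 7 UMIs in the Hyper libraries and 0 in the other five organoid libraries. It was thus at least 6.39-fold higher in Hyper- than in ENR-organoids, and at least 6.03-fold higher than in -VE-organoids, taking 3 counts over the group as the limit that a count of 0 allows. All 15 UMIs of Lama1, the α chain of embryonic laminin-111, were in Hyper replicate 2, where 14 of 3523 cells had any. Summed Hyper-organoids held 8 UMIs of Itga8 against 1 in ENR-organoids (ratio 6.67, 95% counting interval 0.894 to 296). The others were at or near the limit of detection in all organoid groups.

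The comparison of Hyper- with -VE-organoids asks what VPA and EPZ6438 add, and it shares the Hyper libraries with the comparison above. Of 29 genes, 9 rose and 2 fell, against 18.6% called and 16.1% called higher over all genes. The genes that rose were Itga7, Itga9, Itgb5, Itgb8, Lama3, Lama4, Lama5, Lamb1 and Lamb2, and those that fell were Itgad and Itgam. Lama3, Lama4 and Itgb8 passed the filter on low counts only through the Hyper libraries, so they could only be called higher. Itgad passed it only through ENR and -VE libraries, so it could only be called lower. The median log2 fold change was 0.48, against 0.01 over all genes, and that of the 8 laminins was 1.95.

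From the values by library given above, the largest gaps among genes with UMIs in all 8 libraries were those of Itgb8 (log2 4.42, SE 0.51, edgeR adjusted p = 0.000362), Lama3 (2.78, SE 0.46, adjusted p = 0.00183), Lamb2 (2.37, SE 0.32, adjusted p = 0.000756), Lama5 (2.28, SE 0.36, adjusted p = 0.00158) and Itga9 (2.25, SE 0.34, adjusted p = 0.00119). Itgb5 was higher by log2 1.93 (SE 0.19, edgeR adjusted p = 0.00017) and Itga7 by 1.76 (SE 0.27, adjusted p = 0.00125). In each of these 7 genes every Hyper library exceeded both -VE libraries, but with cells thinned to 10000 UMIs the call of Itga7 was lost (log2 1.06, adjusted p = 0.0942, edgeR). Lama4 had 28 UMIs against 0, at least 7.34-fold higher (edgeR adjusted p = 0.00625), but without Hyper replicate 2 or 3, or with thinned cells, it no longer passed the filter on low counts.

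Other calls changed when 1 library was left out. Lamb1 (log2 1.62, SE 0.45, edgeR adjusted p = 0.0187) was lost without -VE replicate 1 (log2 1.55, adjusted p = 0.0964) or replicate 2 (1.72, adjusted p = 0.0898). Itgad (log2 -4.69, SE 1.20, edgeR adjusted p = 0.0134; 2 against 48 UMIs, ratio of summed CPM 0.0328, 95% counting interval 0.00386 to 0.125) was lost without -VE replicate 2 (log2 -2.11, adjusted p = 0.290), the library with most of its UMIs, and without ENR replicate 1 it no longer passed the filter on low counts. Itgam (log2 -1.07, SE 0.25, edgeR adjusted p = 0.00921) was lost without -VE replicate 2 (log2 -0.85, adjusted p = 0.0856) and, with a change under 2-fold, without Hyper replicate 1 (log2 -0.97, adjusted p = 0.0246). With thinned cells Lamb1 (log2 1.00, edgeR adjusted p = 0.0695) and Itgam (log2 -0.37, adjusted p = 0.436) were lost, and Itgad no longer passed the filter.

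A further 7 genes had an adjusted p under 0.05 with a change under 2-fold. Itga5 (log2 1.00, SE 0.33, edgeR adjusted p = 0.0352) was just under the threshold, and with the culture series as a replicate block it was called (log2 1.05, SE 0.31, adjusted p = 0.0269), as was Itgb7 (log2 1.18, SE 0.37, adjusted p = 0.0348). Lamc1, Itga2b, Itgav and Lamb3 were higher in Hyper-organoids by log2 0.85, 0.86, 0.48 and 0.36. Itga2 and Itgb4 were lower, by log2 -0.33 (edgeR adjusted p = 0.00158) and -0.24 (adjusted p = 0.0448). The other 11 genes tested missed the threshold.

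Setting -VE- against ENR-organoids addresses the part of the Hyper medium that remains once VPA and EPZ6438 are left out. This comparison shares libraries with both comparisons above. With edgeR 0 of 29 genes were called, against 2.55% of all genes, and 14 of the 29 had an unadjusted p under 0.05, against 24.0% of all genes. The median log2 fold change was 0.24, against 0.00 over all genes. Lamb3 (log2 0.62, SE 0.07, edgeR adjusted p = 0.00304) and Itga2 (log2 0.24, SE 0.05, adjusted p = 0.0339) had an adjusted p under 0.05 with changes under 2-fold. Lama5 was higher by log2 1.28 (SE 0.35, edgeR adjusted p = 0.0656) and Lamb1 by 1.51 (SE 0.46, adjusted p = 0.0864), both missing the threshold although both -VE libraries were above all 3 ENR libraries. DESeq2 called both (Lama5 log2 1.29, adjusted p = 0.00323; Lamb1 log2 1.52, adjusted p = 0.0190), and edgeR with the culture series as a replicate block called Lama5 (log2 1.11, SE 0.25, adjusted p = 0.0428). Lama4, with 0 UMIs in -VE- and 14 in ENR-organoids, had an edgeR adjusted p of 0.0536. In the shared fit without Hyper replicate 1, Lamb1 (adjusted p = 0.00979) and Lama4 (adjusted p = 0.0314) were called.

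Because class shares differed between media, the comparison of Hyper- with ENR-organoids was repeated on the UMIs of single classes, as the authors annotated the cells. In the stem class 9 of 25 tested genes rose and 0 fell, against 18.0% called over all genes. In the transit amplifying class, the dividing progeny of stem cells, 12 rose and 1 fell of 25, against 20.9%. In the goblet class, the mucus-secreting cells, 6 of 17 rose, against 13.3%, and in the enteroendocrine class, the hormone-secreting cells, 3 of 16 rose, against 7.40%. Some of the genes that rose passed the filter on low counts through libraries other than ENR, and so could only be called higher. Among them in stem cells were Itga9, Lama3, Lamb1 and Itgb8, with 0 or 1 UMIs in ENR-organoids, and Itga7, with 4. In transit amplifying cells they included Itga9, Lama3 and Lamb1, with 0 or 1 UMIs there, Itgb7, with 5, and Itgb8, with 8. In goblet cells they included Itga5, Itgb5 and Lamb2, with 10, 17 and 9 UMIs in ENR-organoids. In enteroendocrine cells they included Lamb1, with 0, and Itgb5, with 8. The median log2 fold changes of the classes, in the order given, were 0.92, 0.95, 0.72 and 0.54. The other classes had a library with fewer than 50 cells and were not tested. Without any 1 Hyper library, Lama3 no longer passed the filter on low counts in stem cells, and without ENR replicate 2 or 3 or Hyper replicate 2 the goblet calls of Itga5 (adjusted p = 0.0596 to 0.0741) and Lamb2 (0.0654 to 0.104) were lost in the edgeR fit, leaving 4.

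Itgb5 was called in all 4 classes. In the stem class it was at 2.40, 2.68 and 3.14 CPM (relative to all UMIs of that class) in the ENR libraries and 11.5, 17.6 and 14.6 in the Hyper libraries (log2 2.32, SE 0.21, edgeR), and in the goblet class at 0.85, 1.76 and 1.46 against 9.01, 12.1 and 9.51 (log2 2.75, SE 0.33, edgeR). The lowest Hyper library was above the highest ENR library in both. Itga5 rose in stem, transit amplifying and goblet cells by log2 1.89, 1.71 and 1.92. In stem cells its ENR libraries were at 1.63, 0.81 and 1.05 CPM and its Hyper libraries at 3.60, 6.72 and 3.78 CPM, with no overlap.

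Several laminin and integrin genes were at or near 0 in ENR-organoid stem and transit amplifying cells and read there in Hyper-organoids. Lamb1 had 1 UMI in ENR- and 228 in Hyper-organoid stem cells (ratio of CPM 54.3, 95% counting interval 9.65 to 2155), and 0 against 335 UMIs in transit amplifying cells (at least 74.9-fold higher). Itga9 had 0 against 91 UMIs in stem cells (at least 7.23-fold higher) and 0 against 97 in transit amplifying cells (at least 21.7-fold higher). Lama3 had 0 against 50 UMIs in stem cells (at least 3.97-fold higher) and 1 against 60 in transit amplifying cells (ratio 40.3, interval 6.96 to 1617). Itgb8 had 1 against 147 UMIs in stem cells (ratio 35.0, interval 6.19 to 1393).

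Some of these genes were read in secretory cells of ENR-organoids already. Lamb1 was at 4.98, 8.79 and 14.6 CPM in the summed goblet cells of ENR-, -VE- and Hyper-organoids and at 7.68, 16.1 and 11.4 CPM in Paneth cells, the antimicrobial cells of the crypt base. The Paneth value of Hyper-organoids rested on 4 UMIs, all in the 10 Paneth cells of replicate 1. Of the 39 UMIs of Itga9 in ENR-organoids, 36 lay in enteroendocrine cells, where its level was 9.77, 8.31 and 9.25 CPM in the 3 groups; in Hyper-organoids 62 of 260 lay there. Lama5 was at 21.99, 21.7 and 31.3 CPM in enteroendocrine cells. Itga4 held 158 of its 163 organoid UMIs in enteroendocrine cells. Of the 388 UMIs of Itgam in ENR-organoids, 36.6% lay in enterocyte progenitors and 24.7% in enterocytes, classes with 29.9% and 9.72% of all UMIs there. Of its 163 UMIs in Hyper-organoids 44.8% lay in stem cells, 13.5% in enteroendocrine and 13.5% in goblet cells, which held 37.2%, 1.81% and 4.64% of all UMIs. Within classes, the fall of Itgam was called in transit amplifying cells (log2 -1.98, SE 0.33, edgeR adjusted p = 0.00114) and missed the threshold in stem (log2 -0.70, SE 0.41, adjusted p = 0.191) and goblet cells (log2 -0.68, SE 0.48, adjusted p = 0.312). In enteroendocrine cells Itgam was too low to be tested, with 3 UMIs in ENR- and 22 in Hyper-organoids (0.814 and 3.28 CPM).

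**Figure D3:**
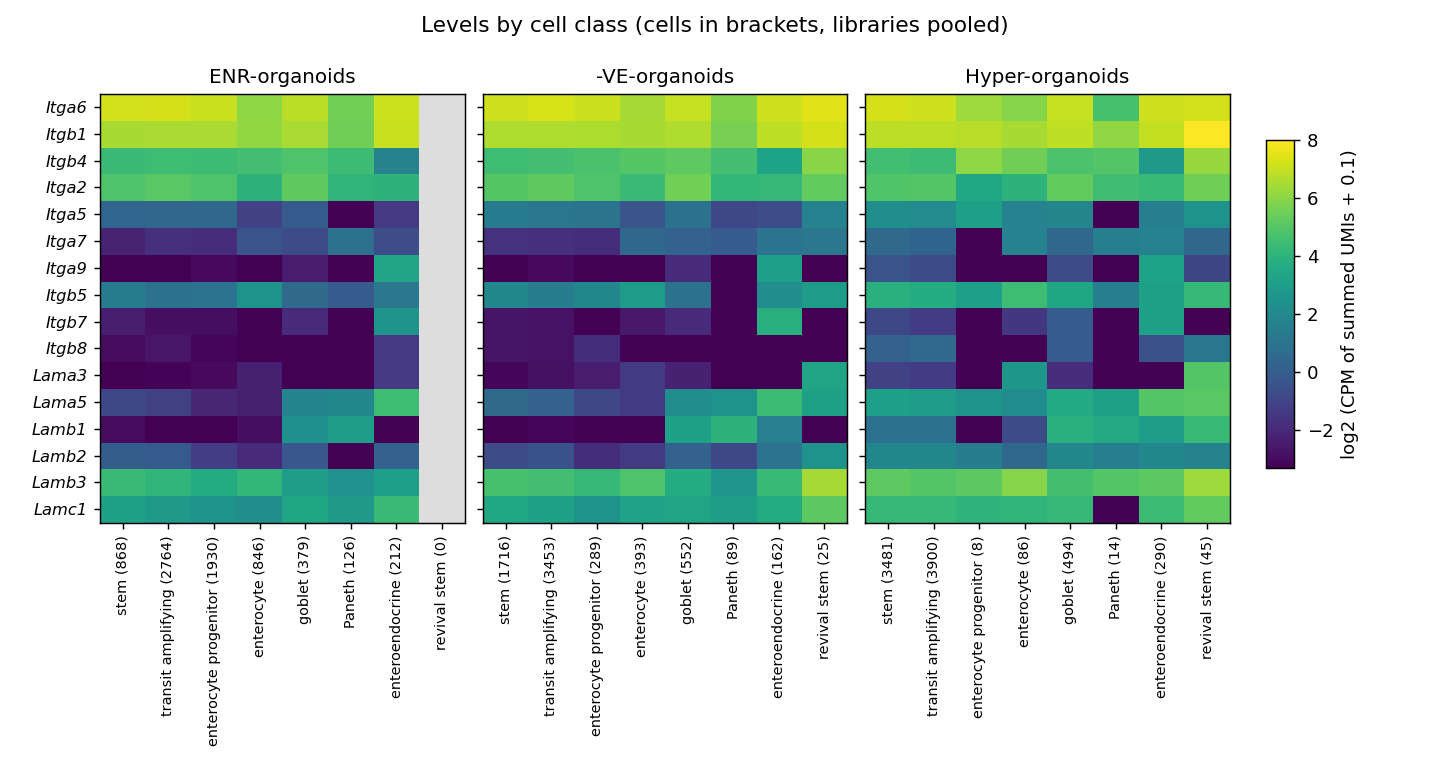
Heat map of the level of each gene in each cell class and organoid group, as log2 of CPM + 0.1 of the summed UMIs of the class, with grey where a class had no cells. Itga6 and Itgb1 are bright across classes, within ENR-organoids Itga9, Itgb7 and Lama5 are brightest in enteroendocrine cells, and the Lamb1 row is bright in goblet and Paneth cells in all 3 groups but in stem and transit amplifying cells it is above the lowest shades in Hyper-organoids.

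For the genes with a mean of at least 20 CPM in a group, the classes with at least 50 cells differed in level. Itga6 was highest in transit amplifying cells of ENR- and -VE-organoids (155 and 161 CPM) and stem cells of Hyper-organoids (155 CPM), and lowest in Paneth cells (47.4 and 58.0 CPM) and, in Hyper-organoids, enterocytes (61.5 CPM). Itgb1 was highest in enteroendocrine cells of each group (133, 121 and 126 CPM). Itgb4 was lowest there (3.26, 9.38 and 6.86 CPM), while Itga2 was highest in goblet cells (37.5, 47.6 and 38.9 CPM). Lamb3 was highest in stem cells of ENR-organoids (20.7 CPM) and in enterocytes of -VE- and Hyper-organoids (29.4 and 62.3 CPM). These are levels of pooled cells and were not tested between classes.

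A direct test asked whether the change from ENR- to Hyper-organoids differed between stem and goblet cells. It did for 3 of 17 genes at an edgeR adjusted p under 0.05, a share (17.6%) near the 14.4% of all genes, so the count says nothing particular of these genes. Lama5 was at 0.46, 0.73 and 0 CPM in ENR- and 7.53, 9.90 and 6.97 CPM in Hyper-organoid stem cells, and at 3.70, 4.31 and 1.75 against 12.8, 13.1 and 10.1 CPM in goblet cells. Both classes rose, from a higher ENR level in goblet cells, and the change was larger in stem cells by log2 2.37 (SE 0.44, edgeR adjusted p = 0.00209). Lamb1 was at 0.08, 0 and 0 against 0.60, 2.29 and 2.18 CPM in stem cells and at 6.82, 2.94 and 6.12 against 12.8, 16.0 and 15.0 CPM in goblet cells. Its ENR libraries were at or near 0 in stem cells and all above that in goblet cells (difference log2 3.94, SE 1.11, edgeR adjusted p = 0.0269). Lamb3 went the other way. It was at 22.2, 21.6 and 17.0 against 37.2, 36.8 and 34.8 CPM in stem cells and at 7.11, 7.44 and 9.03 against 30.5, 21.1 and 23.7 CPM in goblet cells, so its change was smaller in stem cells by log2 -0.83 (SE 0.21, edgeR adjusted p = 0.0147). The difference of Lama5 passed without any 1 of the 6 libraries (log2 2.19 to 2.87). That of Lamb1 did not pass without ENR replicate 1, 2 or 3 or Hyper replicate 2 (adjusted p = 0.0531 to 0.112), nor that of Lamb3 without ENR replicate 1 (log2 -0.74, adjusted p = 0.0791) or 2 (log2 -0.69, adjusted p = 0.0920).

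**Figure D4:**
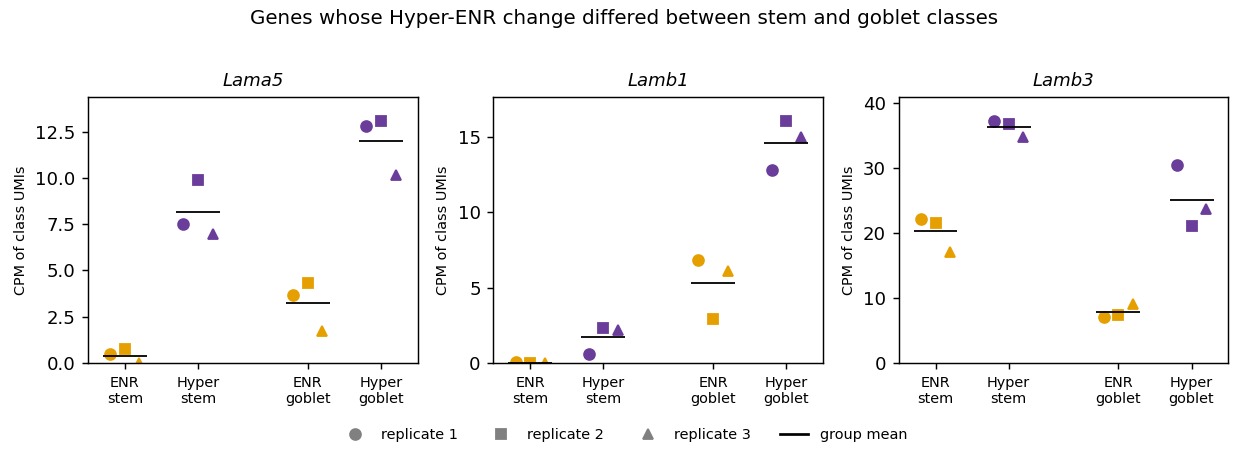
Level of Lama5, Lamb1 and Lamb3 in stem and goblet cells of each ENR- and Hyper-organoid library, in CPM of the UMIs of the class. In all 3 panels the Hyper points lie above the ENR points of the same class. Lama5 and Lamb1 start near 0 in ENR-organoid stem cells, and Lamb3 starts lower in goblet than in stem cells.

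The partners and ligands of these receptors were taken from wider lists, none of which overlaps the 36 genes. The lists were chosen with earlier results of these data known, so their counts are not independent support. Of 17 tested genes for other basement membrane proteins and integrin ligands, 13 rose in Hyper- against ENR-organoids (median log2 3.13), against 18.2% of all genes called higher. Among them, the collagen IV chains Col4a5 and Col4a6 were at or near 0 in ENR-organoids (0 to 0.0104 CPM and 0 CPM) and at 0.767 to 1.88 and 0.0204 to 0.298 CPM in the Hyper libraries. Genes at or near 0 in ENR-organoids could only be called higher. Nid1, which links laminin to collagen IV, rose from a mean of 0.097 to 5.03 CPM (log2 5.68, SE 0.39). Of 28 tested cytoplasmic adhesion proteins, 5 rose and the median was -0.03, a share (17.9%) near that of all genes. These were Fermt2, the integrin activator kindlin-2 (0.152 to 8.44 CPM, log2 5.78, SE 0.51), the actin linker Tns1 (0.0186 to 0.451 CPM, log2 4.45, SE 0.66), Flna, which crosslinks actin (5.91 to 23.7 CPM, log2 2.00, SE 0.11), Rsu1 and Tns4. Of 8 hemidesmosome genes and lateral partners 0 were called, against 22.9% of all genes. Of these 8, 4 had an adjusted p under 0.05 with a change under 2-fold. Of all 16037 genes, 9902 had an unadjusted p under 0.05, a looser rule, so this count says nothing particular of these genes. Of 5 laminin receptors other than integrins, Bcam, which binds Lama5 (2.18 to 10.5 CPM, log2 2.26, SE 0.31), rose. Lists of 8 and 5 genes are too short to set these counts apart from the shares of all genes. All p here came from the same edgeR fit.

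Against -VE-organoids, 10 of these 17 basement membrane genes (median log2 1.81), 5 of the 28 cytoplasmic adhesion genes (median -0.08) and Bcam rose, and 0 hemidesmosome genes were called. Of all genes 18.6% were called and 16.1% were called higher, so that the share of the cytoplasmic adhesion genes (17.9%) was near the background. Between -VE- and ENR-organoids, Npnt, a ligand of the α8 integrin, rose (log2 1.59) and Ntn4, a laminin-related netrin, fell (log2 -2.34).

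In the colon, with 1 library per group, no test was possible and the intervals cover counting error only. Of the 36 genes, 32 had at least 10 UMIs over both libraries. On log2(CPM + 1), 4 were more than 2-fold higher and 1 more than 2-fold lower in DSS crypts, against 4.30% of all genes past 2-fold and 3.01% higher. The count depended on the CPM added. With 0.1 CPM in place of 1, 8 of the 32 were past 2-fold (10.9% of all genes), and with 5 CPM, 0 (1.85%). The median log2 difference was 0.20, against 0.04 over all genes. Lama3 went from 4.52 CPM (95% exact Poisson interval 3.64 to 5.56) in normal to 10.9 CPM (9.82 to 12.1) in DSS crypts, and Itga5 from 7.03 CPM (5.92 to 8.30) to 2.53 CPM (2.01 to 3.14). The intervals of the 2 libraries were apart in both. Lama4 was at 0.10 and 1.33 CPM (2 and 43 UMIs), Itgb8 at 0.10 and 1.20 CPM (2 and 39 UMIs) and Itgam at 1.31 and 3.92 CPM.

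Leukocytes were present in both colonic libraries, so the genes were also read without them. Of the 25 clusters of the authors, 6 were leukocyte-rich (at least 50% of cells with Ptprc, the leukocyte marker CD45), with 19.3% of normal and 23.02% of DSS cells. These clusters held 5.22% of all colonic UMIs, the share to set beside those of single genes. They held 95.7% of the UMIs of Itga4, 93.9% of Itgb7, 92.6% of Itgb2, 91.5% of Itgal, 90.6% of Itgae and 41.2% of Itgam. They held 0.52% of the UMIs of Itga6, 3.37% of Lamb3 and 0 of 444 UMIs of Lama3 (95% exact binomial interval up to 0.827%). Without these clusters and all cells with Ptprc, Lama3, Lama4 and Itga5 were still past 2-fold on log2(CPM + 1), while Itgam (1.22 to 2.05 CPM) and Itgb8 (0.0532 to 0.939 CPM) were not. The ratio of the plain CPM of Itgb8 was no smaller than before, and it missed 2-fold only through the 1 CPM added. Markers of other cell types also differed between the libraries. The fibroblast list summed to 53.5 CPM in normal and 108.03 CPM in DSS crypts (Col3a1 2.61 and 20.8 CPM, Col1a1 0.301 and 9.32 CPM, but Dcn 18.7 and 18.5 CPM). The endothelial list summed to 1.21 and 2.87 CPM, and most of the difference was Pecam1 (0.754 and 2.22 CPM). Its other members were Vwf at 0.402 and 0.494, Kdr at 0.0502 and 0.123, Cdh5 at 0 and 0.0309 and Emcn at 0 and 0 CPM. The part of these markers in the change of Lama4 and the other genes was not tested.

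Lama3 and Lamb3, 2 chains of laminin-332, were read at their highest in a few colonic clusters. Lama3 was at 79.6 CPM in cluster 17 (0 normal and 57 DSS cells), 75.7 CPM in cluster 12 (93 and 1), 68.3 CPM in cluster 9 (2 and 108) and 34.4 CPM in cluster 7 (8 and 139). Lamb3 was at 324, 281 and 144 CPM in clusters 17, 12 and 7. The cells of clusters 17 and 12 were shallow, with medians of 2466 and 5883 UMIs, against 25320.5 and 16334 in clusters 9 and 7. The order of these levels was not tested. Each of these clusters lay mostly in 1 library, so cluster and library cannot be told apart. Itga5 was highest in cluster 12 (39.4 CPM), and Itga6 in cluster 2 (195 CPM). In the whole normal and DSS libraries, Itgb1 was at 100 CPM in both, Itga6 at 144 and 127 CPM and Itgb4 at 54.0 and 68.4 CPM.

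**Figure D5:**
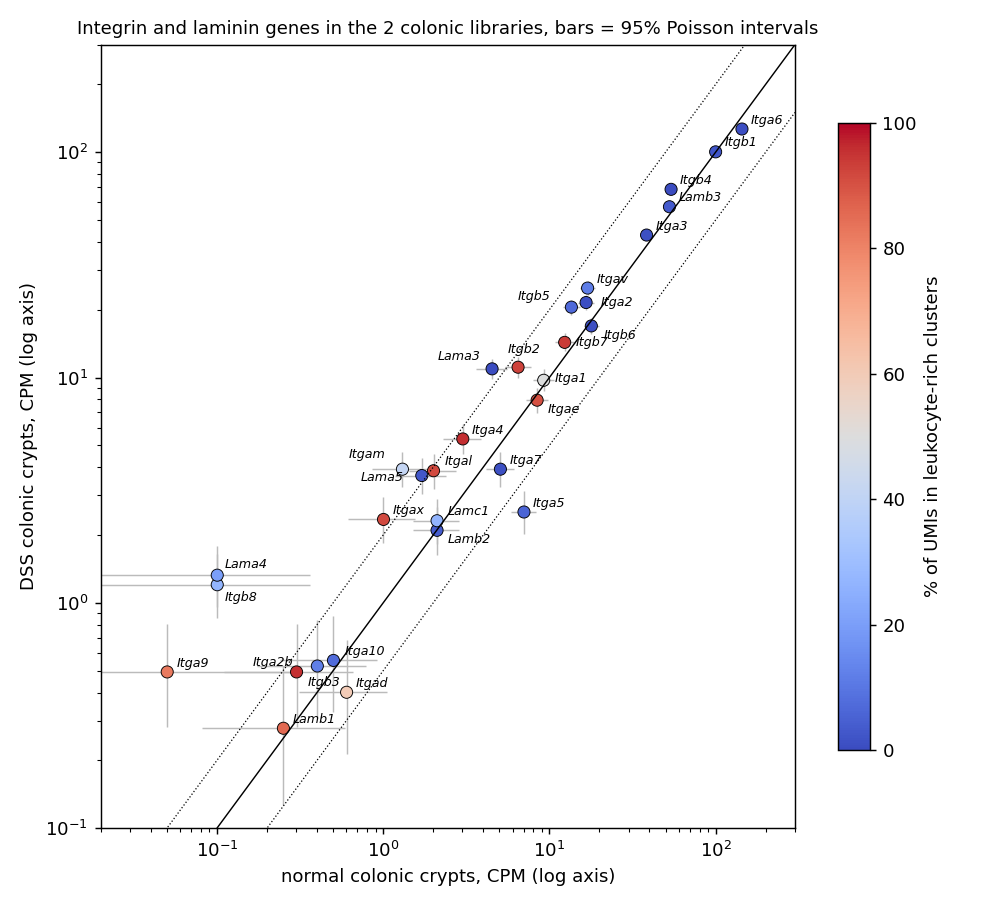
CPM in DSS against normal colonic crypts for the integrin and laminin genes shown, both axes on a log scale, with 95% exact Poisson intervals, cut off below 0.02 CPM, and dotted lines at 2-fold on CPM itself. The color gives the percent of UMIs in leukocyte-rich clusters. Lama3 lies above and Itga5 below the dotted lines with narrow intervals, while Itgb2, Itgb7, Itgae and Itga4 carry the color of leukocyte-rich clusters.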

How the data were processed

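Droplet-based 3′ single-cell libraries of 8 organoid samples and 2 colonic samples were used. The authors counted UMIs with Cell Ranger on mm10 (version 3.0.0 in the processing notes, 3.1.0 in the matrix headers), and the deposited values are raw UMI counts per gene and barcode. Cells, classes and clusters were the authors' own, made with Seurat 3.1.4. The methods state at least 1500 genes per cell, but the kept cells include some with fewer. The deposited table of kept-cell counts was not used, since the matrices carry gene identifiers. All libraries were matched to a sample (0 columns left over). No doublet caller was run, and leaving out the 5% of cells with the most UMIs in each library stood in for it.

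Counts were summed per library over 25204 kept cells, because cells are not replicates. All 8 organoid libraries were fitted together in edgeR 4.0.16 (R 4.3.3; TMM, filterByExpr, quasi-likelihood F test), with DESeq2 1.42.0 as an alternative. Calls needed a 2-fold change and an adjusted p (Benjamini-Hochberg) below 0.05. CPM of whole libraries are TMM-adjusted, while CPM of classes, colonic libraries and summed groups use plain totals. They are not divided by gene length, because 3′ UMIs do not grow with it. Where a group held 0 UMIs, 3 counts over the group were the limit used. The fit was tested on simulated data.

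Named with values in every library were genes called in any contrast of organoids and genes with a mean of at least 20 CPM in a group. Itgav, Itgb2, Itgb3 and Lama1 were added after their values were seen. The values of 1 of the 36 genes are not reported here, though counts over the genes include it. The genes, gene lists and tests were chosen with earlier results of these data known. Libraries were paired by the first character of their codes, read as a culture series, which the labels do not state. Over 16037 genes, deviations from the group means correlated between same-series ENR- and Hyper-organoids at 0.192, 0.170 and 0.436, between ENR- and -VE-organoids at 0.161 and 0.0617, and between -VE- and Hyper-organoids at 0.139 and 0.115. Alternatives were the size factors, the filters, the methods' cell filter, thinning of cells to 10000 UMIs, the culture series as a block and leaving out each library. For the classes other than stem, and for the test of stem against goblet cells, leaving out libraries and the block were chosen after seeing the data. Promoters came from RefSeq tables on GRCm38.p6.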

Additional observations from a re-analysis of the deposited data

Results flagged for a closer look

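The change from ENR- to Hyper-organoids differed between stem and goblet cells for 3 of 17 integrin and laminin genes tested (Lama5, Lamb1 and Lamb3), a share (17.6%) near the 14.4% of all genes. The test was a class by medium term with the library as a block (edgeR). The difference, stem minus goblet on the log2 scale, was 2.37 for Lama5 (SE 0.44, adjusted p = 0.00209), 3.94 for Lamb1 (SE 1.11, adjusted p = 0.0269) and -0.83 for Lamb3 (SE 0.21, adjusted p = 0.0147). The direction held without any 1 of the 6 libraries. The difference passed in all 6 such fits for Lama5, in 2 of 6 for Lamb1 (lost without ENR replicate 1, 2 or 3 or Hyper replicate 2) and in 4 of 6 for Lamb3 (lost without ENR replicate 1 or 2).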

How the results depend on the processing

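In the comparisons of whole organoid libraries, no gene with an adjusted p under 0.05 changed direction under any alternative run. Of 240 values of the 16 genes with an adjusted p under 0.05 for Hyper- over ENR-organoids, 239 kept an adjusted p under 0.05. With thinned cells Itga9 lost it (log2 1.04, edgeR adjusted p = 0.0716). Some genes were called only under an alternative, among them Itgav and Lamb3, whose change then passed 2-fold, Itgad without either -VE library and, with no filter on low counts, Itgb3. For Hyper- over -VE-organoids 234 values kept their side of the threshold and 31 did not. Leaving out 1 library gave 12 to 14 called genes against 12, 9 to 12 against 11 for Hyper- over -VE-organoids, 0 to 2 against 0 for -VE- over ENR-organoids, 8 to 10 against 9 in stem cells, 12 to 14 against 13 in transit amplifying cells, 4 to 7 against 6 in goblet cells, 3 in each case in enteroendocrine cells and 1 to 3 against 3 for stem against goblet cells. Cells thinned to 10000 UMIs gave 7 genes for Hyper- over -VE-organoids, without Itga7, Itgad, Itgam, Lama4 and Lamb1 and with Itga2b added (log2 1.70, adjusted p = 0.0290). For -VE- over ENR-organoids, DESeq2 called 2 genes, no filter on low counts called 1, and leaving out Hyper replicate 1 called 2. In the colon, 3 genes were past 2-fold without leukocyte-rich clusters and cells with Ptprc, 8 with a pseudocount of 0.1 CPM, 0 with 5 CPM and 3 with at least 50 UMIs, against 5. Of all genes, 3.47%, 10.9%, 1.85% and 4.82% were past 2-fold under these settings, against 4.30%, and 26, 32, 32 and 24 of the integrin and laminin genes were tested, against 32. Causes were not tested, except that a larger pseudocount shrinks the change of low genes and thinning leaves fewer UMIs.

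With the culture series as a replicate block, 1 gene was called for -VE- over ENR-organoids (Lama5), 13 for Hyper- over -VE-organoids and 10 in stem cells, where Itgb7 was added (log2 2.19, SE 0.69, adjusted p = 0.0246). The block removed no call in these comparisons. Depth limits the genes near 0: 3 counts in a whole organoid library correspond to 0.0176 to 0.0337 CPM.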

Other observations

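Cells that the authors annotated as revival stem cells, a damage-associated state marked by Clu, numbered 45 in Hyper-organoids (5, 14 and 26 in replicates 1, 2 and 3), 25 in -VE-organoids (8 and 17) and 0 in ENR-organoids, too few for a test. Laminin-332 chains were among the genes read there. Lama3 was at 7.49, 42.1 and 31.1 CPM in the 3 Hyper libraries (2, 28 and 47 UMIs) and 0 and 14.7 CPM in the -VE libraries (0 and 9 UMIs), and Lamb3 at 86.2, 87.3 and 77.5 CPM and at 33.6 and 118 CPM. Lama5 was at 26.2, 54.2 and 26.5 CPM in the Hyper libraries and 12.2 and 6.53 CPM in the -VE libraries. Lamb1 was at 11.2, 37.6 and 14.6 CPM in the Hyper libraries, against 0 in both -VE libraries, where a count of 0 allows up to 3 UMIs. Itgb1 was at 146, 358 and 252 CPM, and at 146 and 162 CPM in the -VE libraries. Pooled over Hyper-organoids, Lamc1 was at 38.5 CPM and Itgb4 at 76.6 CPM in these cells.

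In the 86 enterocytes of Hyper-organoids, Lama3 held 24 UMIs (6.25 CPM), against 3 UMIs (0.10 CPM) in 846 enterocytes of ENR-organoids, Itgb4 was at 46.6 against 24.2 CPM, and Itgb5 at 22.4 against 5.45 CPM. Most of these Hyper-organoid enterocytes were in 1 library, and the values were not tested.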
